A study of Mus musculus with 5 samples.

Results

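Of 23022 genes compared between 4N and WT mouse liver, 10 form the serine synthesis, folate cycle and Atf4 group, taken by gene symbol. They are the serine synthesis enzymes Phgdh, Psat1 and Psph, the serine hydroxymethyltransferases Shmt1 and Shmt2, the mitochondrial folate enzymes Mthfd2, Mthfd1l and Aldh1l2, the asparagine synthetase Asns and the transcription factor Atf4, and 10 of 10 were found. The livers came from E18.5 embryos, near birth. The 4N group held 3 libraries, from embryos with a knockout of the homeobox gene Hhex, on which liver formation depends, that had been injected as blastocysts with tetraploid embryonic stem cells (4N-ESCs, positive for the red fluorescent protein td-Tomato). The WT group held 2 libraries from unmanipulated wild-type embryos of the same day. Ploidy, the origin of the liver cells, the host genotype and the injection differ between the groups together and cannot be told apart. The labels do not say which cell types of a 4N liver still came from the host, how many stem cell lines were used or whether livers were pooled, so p-values measure only the spread between these samples, which may be technical.

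Cells make serine from the glycolytic intermediate phosphoglycerate in steps run in order by PHGDH, PSAT1 and PSPH. Serine hydroxymethyltransferases, SHMT1 in the cytosol and SHMT2 in mitochondria, then split serine into glycine and a carbon unit carried by folate, which is used to build purines and thymidylate and to recycle methionine. In mitochondria MTHFD2 oxidizes this unit, MTHFD1L releases it as formate, and ALDH1L2 burns it to carbon dioxide. ATF4, whose protein level is set mostly by translation when the initiation factor eIF2 is phosphorylated, binds C/EBP-ATF response elements in many genes of amino acid supply, Asns, Psat1 and Phgdh among them. The adult liver is better known for consuming serine, glycine and methionine than for making serine.

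The promoters are shown for 4 genes whose transcripts are central to the results, Psat1 and Phgdh as a pair that rose and Shmt2 and Shmt1 as isozymes that moved in opposite directions. No expression result rests on these sequences. The sequences are RefSeq's of build GRCm38.p6, all on the minus strand, and run 5′ to 3′ up to the base before the start site, except that Phgdh stops at position -22, where annotated exon sequence begins. They cover chr19:15925060-15925309 for Psat1, chr3:98339991-98340219 for Phgdh, chr10:127522445-127522694 for Shmt2 and chr11:60811266-60811515 for Shmt1. Capitals mark the CCAAT box, a common promoter element, as CCAAT or, on the other strand, ATTGG.
Psat1: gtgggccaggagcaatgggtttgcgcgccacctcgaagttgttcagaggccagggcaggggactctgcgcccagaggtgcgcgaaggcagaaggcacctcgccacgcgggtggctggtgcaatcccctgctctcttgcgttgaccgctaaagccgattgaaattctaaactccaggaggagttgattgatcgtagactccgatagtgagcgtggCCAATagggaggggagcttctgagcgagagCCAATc
Phgdh: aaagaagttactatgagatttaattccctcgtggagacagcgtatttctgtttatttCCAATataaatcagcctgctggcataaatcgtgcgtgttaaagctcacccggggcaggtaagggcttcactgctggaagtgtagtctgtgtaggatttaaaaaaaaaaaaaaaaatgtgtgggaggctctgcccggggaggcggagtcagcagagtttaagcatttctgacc
Shmt2: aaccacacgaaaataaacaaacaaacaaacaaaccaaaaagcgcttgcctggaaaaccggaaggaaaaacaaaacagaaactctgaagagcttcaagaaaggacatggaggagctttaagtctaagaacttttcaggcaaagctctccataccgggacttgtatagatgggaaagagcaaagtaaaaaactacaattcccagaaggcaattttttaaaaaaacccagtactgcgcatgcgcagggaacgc
Shmt1: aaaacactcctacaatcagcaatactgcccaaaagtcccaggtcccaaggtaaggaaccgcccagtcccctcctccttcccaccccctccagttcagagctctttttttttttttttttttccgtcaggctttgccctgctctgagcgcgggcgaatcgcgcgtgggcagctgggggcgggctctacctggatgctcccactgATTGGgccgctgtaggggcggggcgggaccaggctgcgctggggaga
A second match in Phgdh, at -23 to -19, runs past the printed end. Of the 10 genes, all but Aldh1l2 had a window of 250 bases before to 50 after a start site. A CCAAT box, searched on both strands and chosen after the sequences were seen, was in a window of 6 of these 9 (Phgdh, Psat1, Psph, Shmt1, Mthfd2 and Atf4). Of all 32851 windows 37.4% held it, which is a share of windows and not of genes. For every motif a gene counted if any of its windows matched. Psat1 has another window, at the start site chr19:15924622, and no CCAAT box was found there. The box was in windows of genes that rose, of Shmt1, which fell, and of genes that did not pass the test. In Psph, annotated exons of Cct6a and Psph cover all 250 bases before the start, so its matches lie in exon sequence. The core of the C/EBP-ATF response element, TGATGNAA, was in 1 of the 9, Asns, and in 3.97% of all windows. The Asns match spans positions -23 to -16. An annotated Asns exon overlaps the window, and its longest exon-free stretch before the start ends at -46, so the match lies past that stretch. The match lies within chr6:7693217-7693240 (minus strand, GRCm38.p6), shown with the match in capitals.
Asns: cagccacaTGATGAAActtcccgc
Neither the E-box CACGTG (7.15% of all windows) nor the cyclic AMP response element TGACGTCA (1.79%) was in a window of the 9. None of these motifs overlap in the windows of the 9 genes.

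Transcripts for the first steps of serine synthesis and for mitochondrial SHMT2 were higher in 4N liver, and that for cytosolic SHMT1 was lower. Atf4 itself did not pass the test. By the authors' Wald test (adjusted p under 0.05 over all genes), 4 of the 10 rose (Psat1, Phgdh, Shmt2 and Aldh1l2), 1 fell (Shmt1) and 5 did not pass (Psph, Mthfd2, Mthfd1l, Asns and Atf4). Of all 23022 genes 7.94% rose and 7.41% fell, and of the 11090 genes whose mean lay within the range of the 10, 10.7% rose and 9.73% fell. The median log2 fold change of the 10 was 0.46, against -0.0010 over all genes. The values of each library were not analysed here, so the levels below are fitted group means, computed from each gene's mean over all 5 libraries and its fold change, both from the authors' deposited table. Fold changes are log2 ratios of 4N over WT. Spread appears as the standard error (SE) of the log2 fold change, and intervals are 95% intervals computed from it. Whether single libraries of the groups overlap could therefore not be examined. The numerator is not named there, and the sign was read from genes that lacked reads in a whole group. With a t distribution of 3 degrees of freedom in the authors' test, 0 of the 10 genes passed (5 at an unadjusted p under 0.05), as did 0 of all genes.

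**Figure D1:**
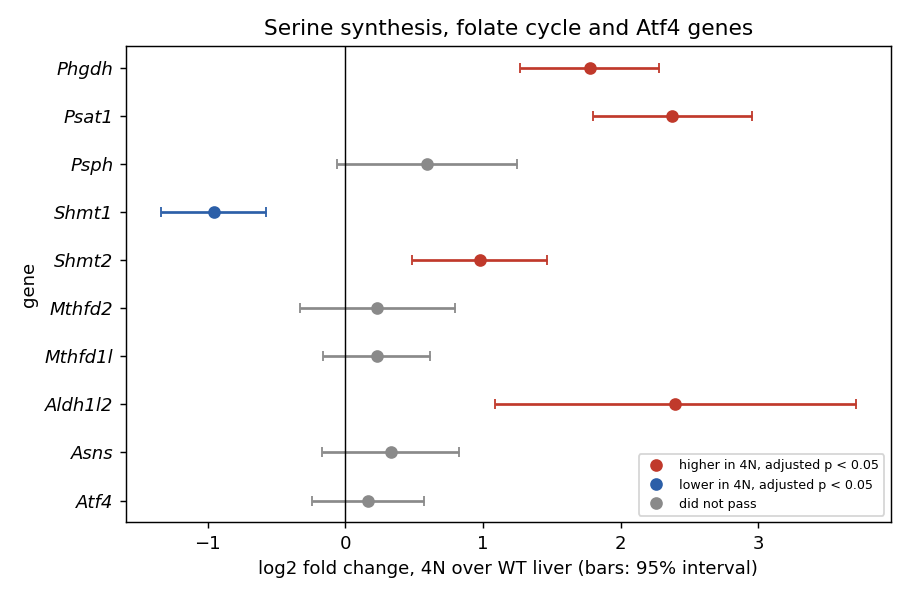
Log2 fold change of 4N over WT liver (x axis) for the 10 genes (y axis, ordered by role), with 95% intervals as bars and colour for the authors' call at an adjusted p under 0.05. The intervals of Phgdh, Psat1, Shmt2 and Aldh1l2 lie above 0, that of Shmt1 lies below 0, and those of the other 5 genes include 0.

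Markers of blood, dividing and other cells moved in the same comparison, and their part in the results below was not tested. Of 14 measured erythroid markers 13 rose, with a median log2 fold change of 1.61 and a summed fitted level of 1040010 normalized counts in WT and 3418640 in 4N liver, and 12 of 15 markers of S phase and mitosis rose, with a median of 0.81. In bulk tissue fewer cells of a type and less RNA per cell cannot be told apart. Hepatocyte markers were abundant in both groups, with 4 of 12 lower, 0 higher by the authors' Wald test (0 at an unadjusted p under 0.05), a median of -0.32 and summed levels of 13232900 and 12751000. Of the other markers, 4 of 10 for macrophages rose and 1 fell, 3 of 9 for stellate and mesenchymal cells rose and 1 fell, and 1 of 6 for cholangiocytes fell, while of 8 endothelial markers 0 passed (1 higher and 1 lower at an unadjusted p under 0.05). Beside all these marker counts, 7.94% of all 23022 genes rose and 7.41% fell. In lists this short, the single falls and the endothelial count cannot be set apart from those shares. No marker of these lists was at 0 in either group. Hhex, the gene knocked out in the hosts, did not pass the test, at a log2 ratio of 0.55 (SE 0.33, adjusted p = 0.286) by the authors' deposited table. The labels do not say which cells of a 4N liver came from the host, so the Hhex value cannot check the labels. Of all genes called, 51.7% were higher, and 77.4% after recentring on the hepatocyte markers.

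Psat1, the aminotransferase of the second step of serine synthesis, had a fitted mean of 5976 normalized counts in WT and 30995 in 4N liver. Its log2 fold change was 2.37 by the authors' deposited table (SE 0.30, adjusted p = 9.03e-14), a 5.19-fold rise with an interval of 3.47 to 7.75. Of the 8656 genes whose mean reached 1000 normalized counts, 0.555% had a higher log2 fold change than Psat1. Phgdh, the dehydrogenase that commits carbon to serine, stood at 2240 normalized counts in WT and 7672 in 4N liver. Its log2 fold change by the authors' deposited table was 1.78 (SE 0.26, adjusted p = 3.06e-10), and 1.26% of those 8656 genes stood higher. A pseudogene copy, Phgdh-ps1, named after its values were seen, had a mean of 5.09 normalized counts against 5499 for Phgdh by the authors' deposited table. Psph, the phosphatase that completes the pathway, had a smaller difference, from 1469 normalized counts in WT to 2211 in 4N liver. In the authors' deposited table its log2 fold change was 0.59 (SE 0.33, adjusted p = 0.258), with an interval of -0.06 to 1.24 that ends below those of Psat1 (1.80 to 2.95) and Phgdh (1.27 to 2.28). Recentring the fold changes on 12 hepatocyte markers raised each by 0.32 and put Psph past the threshold (0.91, adjusted p = 0.034 from the authors' deposited statistics), in a setting where 16.3% of all genes rose and 4.77% fell.

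The transcripts of the serine hydroxymethyltransferase isozymes moved in opposite directions. Shmt2, the mitochondrial enzyme, went from 7500 normalized counts in WT to 14766 in 4N liver, and its log2 fold change was 0.98 by the authors' deposited table (SE 0.25, adjusted p = 0.00127). Shmt1, the cytosolic enzyme, went from 14144 to 7291 normalized counts, which gives a log2 ratio of -0.96 (SE 0.20, adjusted p = 2.38e-05) by the authors' deposited table, a 1.94-fold fall with an interval of 1.49 to 2.53. The ratio of Shmt2 to Shmt1 counts, not scaled by length, was 0.530 in WT and 2.03 in 4N liver, a shift of 3.82-fold. The intervals of the log2 fold changes, 0.49 to 1.47 for Shmt2 and -1.34 to -0.57 for Shmt1, do not overlap. The difference between the genes was not tested, because it needs values of single libraries. Neither isozyme passed in a test against a 1.5-fold change made from the authors' deposited statistics (adjusted p = 0.84 for Shmt2 and 0.54 for Shmt1), by which 2.26% of all genes rose and 2.55% fell.

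Of the mitochondrial enzymes that carry the folate-bound carbon onward, Aldh1l2 rose and the others did not pass. Aldh1l2, the formyltetrahydrofolate dehydrogenase of mitochondria, had the fewest reads of the 10, at 94.1 normalized counts in WT and 496 in 4N liver. Its log2 fold change by the authors' deposited table was 2.40 (SE 0.67, adjusted p = 0.00391), or 5.27-fold with an interval of 2.12 to 13.1. This SE corresponds to a coefficient of variation of 50.03% between libraries of a group, if counts vary as a negative binomial and libraries are of equal size, against 14.8% to 25.2% for the other 9 genes and a median of 18.1% over those 8656 genes. The fold of Aldh1l2 is therefore the least certain of the 10, and it did not pass against a 1.5-fold change (adjusted p = 0.11 from the authors' deposited statistics). Mthfd2, the dehydrogenase and cyclohydrolase, stood at 2629 and 3091 normalized counts in WT and 4N liver. Its log2 fold change was 0.23 by the authors' deposited table (SE 0.29, adjusted p = 0.691), with an interval of -0.33 to 0.79. Mthfd1l, the formate-releasing synthetase, stood at 3388 and 3975, which gives a log2 ratio of 0.23 (SE 0.20, adjusted p = 0.52) by the authors' deposited table and an interval of -0.16 to 0.62. Recentring on the hepatocyte markers put Mthfd1l past the threshold (0.55, adjusted p = 0.031 from the authors' deposited statistics). Both intervals end below that of Psat1 and include 0.

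For Asns and Atf4 no difference was detected. Asns, which makes asparagine from aspartate and glutamine, had 8820 normalized counts in WT and 11090 in 4N liver, which gives a log2 ratio of 0.33 (SE 0.25, adjusted p = 0.456) by the authors' deposited table. Atf4 had 9439 and 10579, which gives a log2 ratio of 0.16 (SE 0.21, adjusted p = 0.7) by the authors' deposited table and an interval of -0.24 to 0.57, or 0.846-fold to 1.48-fold. The transcript says nothing of the amount of ATF4 protein, which was not measured.

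Per kilobase of the longest coding transcript, the order of the 10 genes differed between the groups. In WT liver the order was Atf4 (5472 normalized counts per kilobase), Shmt1 (4949), Asns (4375), Shmt2 (3277), Psat1 (2284), Mthfd2 (1261), Phgdh (1183), Mthfd1l (919), Psph (847) and Aldh1l2 (15.6). In 4N liver it was Psat1 (11844 normalized counts per kilobase), Shmt2 (6451), Atf4 (6133), Asns (5501), Phgdh (4053), Shmt1 (2551), Mthfd2 (1482), Psph (1276), Mthfd1l (1078) and Aldh1l2 (82.3). Psat1 thus went from rank 5 to rank 1 and Shmt1 from rank 2 to rank 6. Taking the spread implied by the SE, neighbours in WT liver lay beyond a 95% interval only between Psat1 and Mthfd2 and between Psph and Aldh1l2. In 4N liver they did so between Psat1 and Shmt2, Phgdh and Shmt1, Shmt1 and Mthfd2, and Mthfd1l and Aldh1l2, and the other neighbours in either order did not differ beyond that spread. These intervals describe the order and are not a test. They take the genes as independent and the lengths as exact, and the pairs were set by sorting.

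**Figure D2:**
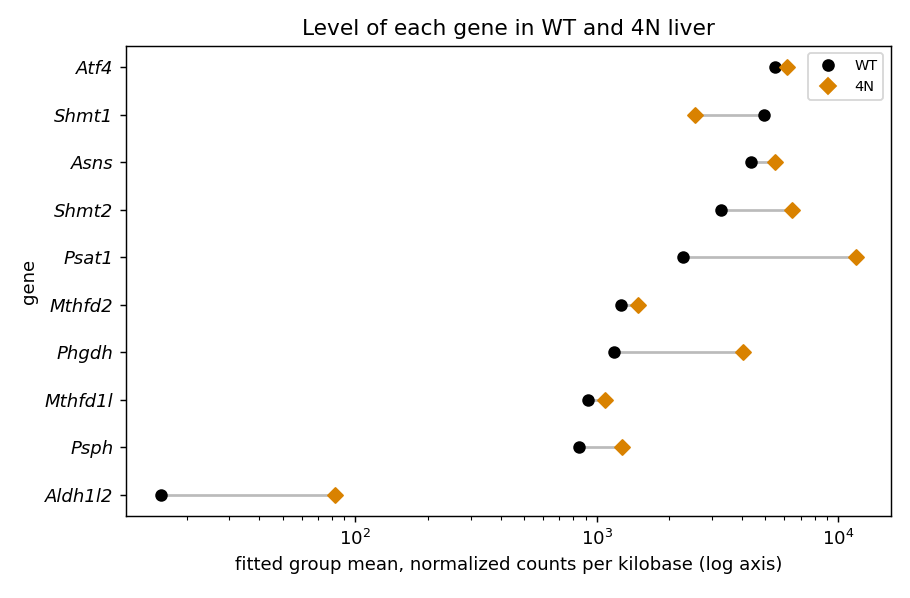
Fitted group means in normalized counts per kilobase (x axis, log scale) of the 10 genes (y axis, ordered by the WT level), with circles for WT and diamonds for 4N liver and no error bars. Psat1 moves from 2284 to 11844 and Aldh1l2 from 15.6 to 82.3, Shmt1 falls from 4949 to 2551, and Atf4 lies at 5472 and 6133.

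Of the 3 paralogs of the folate enzymes outside the group, Aldh1l1 fell and Mthfd1 and Mthfd2l did not pass. Aldh1l1, the cytosolic counterpart of Aldh1l2, fell from 19311 normalized counts in WT to 7309 in 4N liver, which gives a log2 ratio of -1.40 (SE 0.26, adjusted p = 2.86e-06) by the authors' deposited table. The ratio of Aldh1l2 to Aldh1l1 counts was 0.00487 in WT and 0.0678 in 4N liver, so the cytosolic gene gave nearly all of the reads of the pair in both groups. Mthfd1, the cytosolic enzyme that joins several folate activities, stood at 14136 and 14226 normalized counts, which gives a log2 ratio of 0.01 (SE 0.19, adjusted p = 0.986) by the authors' deposited table, and its sign turns (-0.04) when fold changes are recentred on the genes whose mean reached 10000. Mthfd2l, a mitochondrial relative of Mthfd2, had a log2 ratio of -0.67 (SE 0.35, adjusted p = 0.207) by the authors' deposited table. The 2 pairs in which both genes passed, Shmt1 with Shmt2 and Aldh1l1 with Aldh1l2, thus had the mitochondrial gene higher and the cytosolic gene lower in 4N liver, whereas Mthfd1 and Mthfd1l both did not pass.

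**Figure D3:**
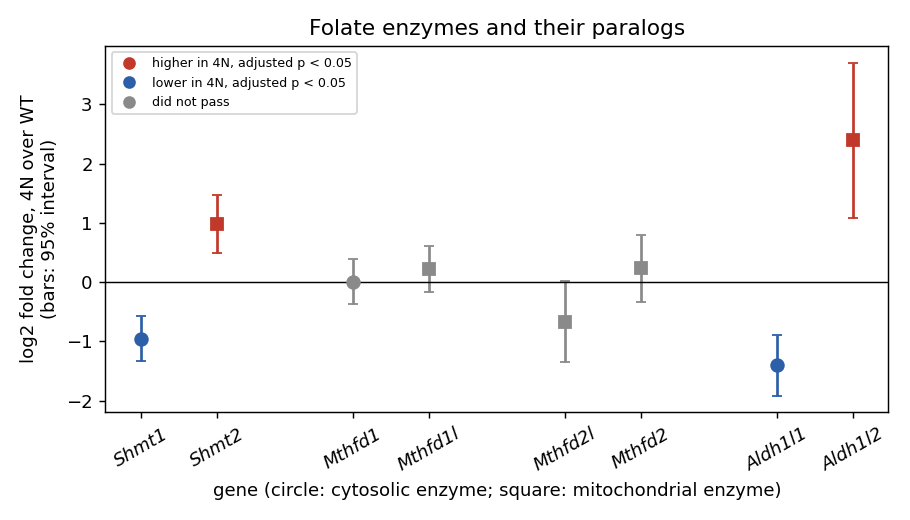
Log2 fold change of 4N over WT liver (y axis) with 95% intervals for 4 pairs of folate enzymes (x axis), with circles for cytosolic and squares for mitochondrial enzymes and colour for the authors' call. Shmt1 (-0.96) and Aldh1l1 (-1.40) lie below 0, Shmt2 (0.98) and Aldh1l2 (2.40) above it, and the intervals of the other 4 genes include 0.

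Other genes of folate metabolism were lower where they passed the test. Of 23 such genes, 6 fell, 0 rose by the authors' Wald test (2 were higher at an unadjusted p under 0.05) and 17 did not pass, with a median log2 fold change of -0.41 against -0.0010 over all genes and 7.41% of all genes called lower. Besides Aldh1l1, they were led by Ftcd, which passes carbon from histidine breakdown to folate, at -1.34 (SE 0.25, adjusted p = 2.47e-06), by the authors' deposited table. Slc46a1, the proton-coupled folate transporter, stood at -1.43 (SE 0.32, adjusted p = 1.13e-04) by the authors' deposited table. Tyms, which makes thymidylate and was named after its values were seen, did not pass, with a log2 ratio of 0.56 (SE 0.23) by the authors' deposited table. The count of falls was 3, with 2 rises, after recentring on the hepatocyte markers, where 4.77% of all genes fell and 16.3% rose.

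Genes of serine and glycine use, of glycine formation or of the methionine cycle passed the test mainly as falls. The list was not split by these roles, so the falls do not all concern genes that consume serine or glycine. Of 34 listed, 32 were measured, of which 14 fell, 1 rose and 17 did not pass, where 7.41% of all genes fell and 7.94% rose. The median log2 fold change of the list was -0.56, against -0.0010 over all genes. Glyat, which conjugates glycine to acyl groups, had a log2 ratio of -4.58 (SE 0.30, adjusted p = 1.14e-50) by the authors' deposited table, from 3206 normalized counts in WT to 134 in 4N liver. Agxt, which turns glyoxylate into glycine, stood at -4.21 (SE 0.29) by the authors' deposited table. Mat1a, which makes S-adenosylmethionine in the adult liver, fell from 215135 to 51535 normalized counts, at -2.06 (SE 0.23, adjusted p = 1.38e-16) by the authors' deposited table. Sds, which breaks serine down to pyruvate, and Gldc, of the glycine cleavage system, both named after their values were seen, had log2 fold changes of -4.57 (SE 0.52) and -1.27 (SE 0.24) by the authors' deposited table. The only gene that rose was Ahcy, which hydrolyses S-adenosylhomocysteine, at 0.63 (SE 0.23, adjusted p = 0.0376) by the authors' deposited table. Other genes of the same steps, also named after their values were seen, did not all pass. Sdsl, a relative of Sds, stood at -0.38 (SE 0.54, adjusted p = 0.743) by the authors' deposited table. Of the other genes of the glycine cleavage system, Gcsh fell (-0.83, SE 0.21), while Amt (-0.02, SE 0.22) and Dld (-0.57, SE 0.24) did not pass by the authors' deposited table. Against a 1.5-fold change 6 genes of this list fell and 0 rose, where 2.55% of all genes fell and 2.26% rose.

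ATF4 and stress targets outside the group split. Of 34 such genes, 8 rose, 4 fell and 22 did not pass, where 7.94% of all genes rose and 7.41% fell. Their median log2 fold change was 0.30, against -0.0010 over all genes. The neutral amino acid transporter gene Slc1a5 went from 4499 to 14361 normalized counts, at 1.67 (SE 0.27, adjusted p = 1.62e-08) by the authors' deposited table. Ppp1r15a, whose product (GADD34) reverses eIF2 phosphorylation, stood at 1.72 (SE 0.33, adjusted p = 4.22e-06), and the secreted glycoprotein gene Stc2 at 2.68 (SE 0.53, adjusted p = 1.29e-05), by the authors' deposited table. The other genes that rose, named after their values were seen, were Ddit4, Slc6a9 (a glycine transporter), Pck2, Slc7a5 and Pycr1 (proline synthesis), with log2 fold changes between 0.68 and 1.73 by the authors' deposited table. In the opposite direction, the pseudokinase gene Trib3 stood at -1.53 (SE 0.47, adjusted p = 0.0117) and the transcription factor gene Atf5 at -1.47 (SE 0.37, adjusted p = 8.14e-04) by the authors' deposited table. Vldlr, a lipoprotein receptor gene named after its values were seen, stood at -0.88 (SE 0.30, adjusted p = 0.0241) by the authors' deposited table. Fgf21, a fasting hormone, was called lower by the authors' deposited table (adjusted p = 2.39e-12) and has the fixed relation of fold change to mean that marks genes with no reads in 4N liver, so no fold is given. Ddit3, which encodes the stress factor CHOP and was named after its values were seen, did not pass (0.08, SE 0.25, by the authors' deposited table). After recentring on the hepatocyte markers 17 genes of the list rose in place of 8, in a setting where 16.3% of all genes rose.

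**Figure D4:**
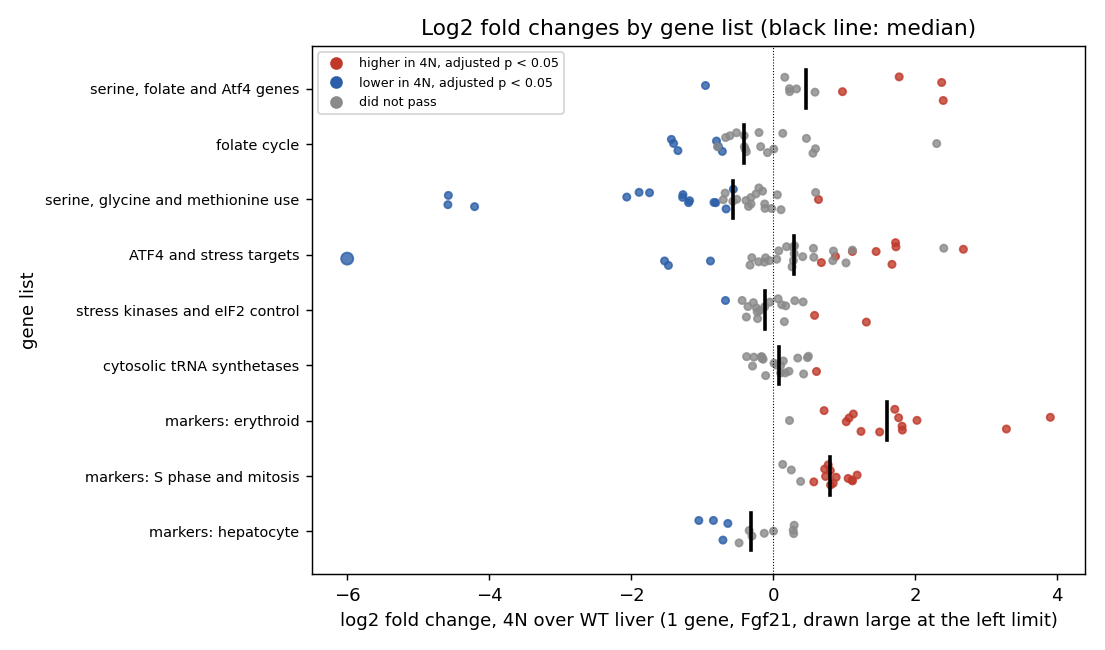
Log2 fold change of 4N over WT liver (x axis) of each measured gene in 9 lists (y axis), with colour for the authors' call, a black line at each list's median and vertical scatter for legibility only. The medians are 0.46 for the serine, folate and Atf4 genes, -0.41 for the other folate genes, -0.56 for the serine, glycine and methionine genes and 1.61 for the erythroid markers, and Fgf21 is drawn at the left limit.

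Most genes upstream of ATF4 translation, and most tRNA synthetases, many of which are ATF4 targets, did not pass the test. Most of all genes did not pass either, as 15.3% were called in either direction. Of 19 kinase, eIF2 and relay genes, 2 rose and 1 fell, 16 not passing, against 7.94% of all genes higher and 7.41% lower, so these counts lie near the share over all genes. Their median log2 fold change of -0.12 turns to 0.20 after recentring on the hepatocyte markers. Eif2ak1, the heme-regulated eIF2 kinase, went from 6354 to 15797 normalized counts, at 1.31 (SE 0.19, adjusted p = 2.64e-10) by the authors' deposited table. The erythroid markers rose too (median 1.61), and their part in the rise of Eif2ak1 was not tested. Gcn1, a partner of the amino acid-sensing kinase, stood at 0.58 (SE 0.21, adjusted p = 0.0432) and Oma1, a mitochondrial stress protease, at -0.68 (SE 0.24, adjusted p = 0.0346) by the authors' deposited table. Of 20 cytosolic tRNA synthetases, 1 rose, 0 fell by the authors' Wald test (0 at an unadjusted p under 0.05) and 19 did not pass, with a median of 0.08. These counts, too, lie near the shares over all genes, 7.94% higher and 7.41% lower. The one that rose, Yars for tyrosine, stood at 0.60 (SE 0.22, adjusted p = 0.0383) by the authors' deposited table.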

How the data were processed

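Poly(A)-selected RNA of 5 mouse livers at E18.5 was sequenced, 3 in the 4N and 2 in the WT group, per the labels. Per the submitters' processing notes the build was GRCm39. Which aligner, counter and test software were used is not given in the sources used here. From these data the authors deposited 1 comparison table of 23022 genes. Its mean is a signal, the mean normalized count over all libraries, per the file headers. Per the file headers, fold changes and SEs are log2 values. The Wald statistic, a score per the file headers, is the log2 fold change over its SE. Its p-values and adjusted p-values are the authors' own. Recomputed from the statistic, the Benjamini-Hochberg adjustment gave 0 calls that differed. The depth of each library is unknown, and the summed mean over all genes was 78112300 normalized counts.

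The table does not name its numerator. Genes with no reads in 1 group lie at a fixed distance between the size of the log2 fold change and the log2 of the mean. This distance was 3.15 for 606 positive and 3.81 for 247 negative genes, against 3.18 computed for an empty WT group of 2 libraries and 3.76 for an empty 4N group of 3, so positive values mean higher in 4N. Group means were solved from the mean, the fold change and the group sizes. The implied coefficient of variation assumes a negative binomial model and equal library sizes. Formulas were tested on simulated data. Lengths came from GENCODE M21 (GRCm38), used for lengths and exons only, and promoters from RefSeq (GRCm38.p6). How reads shared between gene copies were counted is not given in the sources.

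The 10 genes and the 5 pathway lists were chosen with earlier results of these data known. No p was adjusted over a list. All 10 genes, 3 paralogs and, from each list, the called genes with the smallest adjusted p, up to 3 per direction, were named, with Hhex as the gene knocked out in the hosts, and other names are marked as chosen after their values were seen. One gene is not reported here. Likeness of pattern across libraries was not analysed here. The 6 alternatives were a filter at a mean of 50, testing against 1.5-fold, a threshold of 0.01, the t distribution with 3 degrees of freedom instead of a normal one, and recentring on abundant genes (mean of 10000 or more) or on hepatocyte markers. Software was Python 3.11.15 with scipy 1.17.1, pandas 2.3.3, numpy 2.4.6 and matplotlib 3.10.9.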

Additional observations from a re-analysis of the deposited data

How the results depend on the processing

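Of the 6 alternatives only the 2 recentrings can turn the direction of a gene, each by moving all genes by 1 constant, and neither turned that of any of the 10 genes. The calls of Psat1 and Phgdh were lost only with the t distribution of 3 degrees of freedom. With it, applied to the authors' deposited statistics, 0 of the 10 genes rose and 0 fell (adjusted p = 0.372 for Psat1 and Phgdh), against 4 and 1 at an unadjusted p under 0.05, and 0 were called among the folate, serine and glycine, ATF4 target, kinase and tRNA synthetase lists and among all genes (2513 at an unadjusted p under 0.05). Against a 1.5-fold change, 2 of the 10 rose and 0 fell, 1 folate gene fell, 0 serine and glycine genes rose and 6 fell, 3 ATF4 targets rose and 1 fell, 1 kinase gene rose and 0 fell, and 0 synthetases rose. In that test 2.26% of all genes rose and 2.55% fell. At an adjusted p under 0.01, 0 serine and glycine genes rose, 2 ATF4 targets fell, 1 kinase gene rose and 0 fell, and 0 synthetases rose. This threshold called 5.26% of all genes higher and 5.06% lower. With a minimum mean of 50, 2 serine and glycine genes rose, where 11.4% of the genes kept rose and 10.7% fell. Recentring on abundant genes (mean of 10000 or more) moved all values down by 0.05, and 0 serine and glycine genes, 1 kinase gene and 0 synthetases rose. There 7.22% of all genes rose and 8.34% fell. Recentring on hepatocyte markers moved all values up by 0.32, and Psph (0.91) and Mthfd1l (0.55) passed. Under it 2 folate genes rose and 3 fell, 2 serine and glycine genes and 17 ATF4 targets rose, 5 kinase genes rose and 0 fell, and 5 synthetases rose. The shares over all genes were then 16.3% higher and 4.77% lower. Leaving out a library was not run, because no library's own values were analysed here. No paired analysis was made, because the labels give no pairs between 4N and WT livers. Depth per library is unknown, which limits what can be said of Aldh1l2, the gene of the 10 with the fewest counts.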
